A study of Mus musculus and Homo sapiens
Mus musculus with 14 samples.

Results

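The ON bipolar mGluR6 signalling complex was followed as 10 genes, namely Grm6, Trpm1, Gpr179, Nyx, Lrit3, Gnao1, Rgs7, Rgs11, Pcp2 and Prkca. They were chosen by symbol, and all 10 were found among the 24460 genes of the layer counts and the 18415 genes of the amacrine counts. Light-Seq copies RNA into cDNA in fixed tissue and attaches a barcode where light is projected on a region chosen under the microscope, although scattered light can also barcode RNA outside that region. Such misplaced barcodes were not measured here in the retina, and their part in low levels outside a gene's main layer was not tested. Retinas came from wild-type (WT) CD1 IGS mice in the third postnatal week, and no group carried a transgene or a treatment. In 4 sections of 1 animal a barcode each was written into the ganglion cell layer (GCL), which also holds displaced amacrine cells, the bipolar cell layer (BCL), where Müller glia and horizontal cells lie too, and the photoreceptors of the outer nuclear layer (ONL). In 5 further sections the few cell bodies stained for tyrosine hydroxylase (TH+ dopaminergic amacrine cells) and neighbouring unstained amacrine cells (TH-) were barcoded and pooled per section. The study treats both sets of sections as technical replicates. The labels give no animals for these 5, while the study speaks of the source animal of its Light-Seq work in the singular. The p-values here therefore measure the spread between sections.

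ON bipolar cells answer the glutamate of photoreceptors with an inverted sign. In darkness glutamate activates mGluR6, the G protein Go keeps the cation channel TRPM1 closed, and in light the receptor falls silent, RGS proteins switch Go off and the channel opens. Loss of the receptor, the channel, GPR179, nyctalopin or LRIT3 causes congenital stationary night blindness, in which this relay fails.

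Each library held 310228 to 801105 UMIs in the ONL, 193869 to 208437 in the BCL, 585655 to 785013 in the GCL, 30317 to 87449 in TH+ cells and 134394 to 200344 in TH- cells. A UMI is a tag that marks 1 cDNA molecule, and levels are given as UMIs per 1000000 of the library (CPM). The smallest level that 3 UMIs give was 14.4 to 15.5 CPM in the BCL and 34.3 to 98.9 CPM in TH+ libraries, counting error only. The layers were told apart by their markers: 10 of 10 rod genes were higher in the ONL than in the BCL, 8 of 8 ganglion genes were higher in the GCL than in the BCL, and 4 of 6 pan-bipolar genes and 6 of 6 further ON bipolar genes were higher in the BCL than in the ONL. The BCL libraries still carried 12900 to 21860 CPM of 10 rod genes, against 61200 to 75240 CPM in the ONL and 4748 to 8170 CPM in the GCL.

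The complex was a BCL group for 7 of its 10 genes. Grm6, Trpm1, Gpr179, Nyx, Rgs11, Pcp2 and Prkca were called higher in the BCL than in both other layers, and each of their BCL libraries lay above every ONL and GCL library. Of all 11324 genes tested, 5.83% were called above both layers and 7.59% had no overlap in this way. Gnao1 and Rgs7 were not called between the BCL and the GCL, and Lrit3 was an ONL gene in these libraries, so for these 3 genes the levels did not set the BCL apart as the label would have it.

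**Figure D1:**
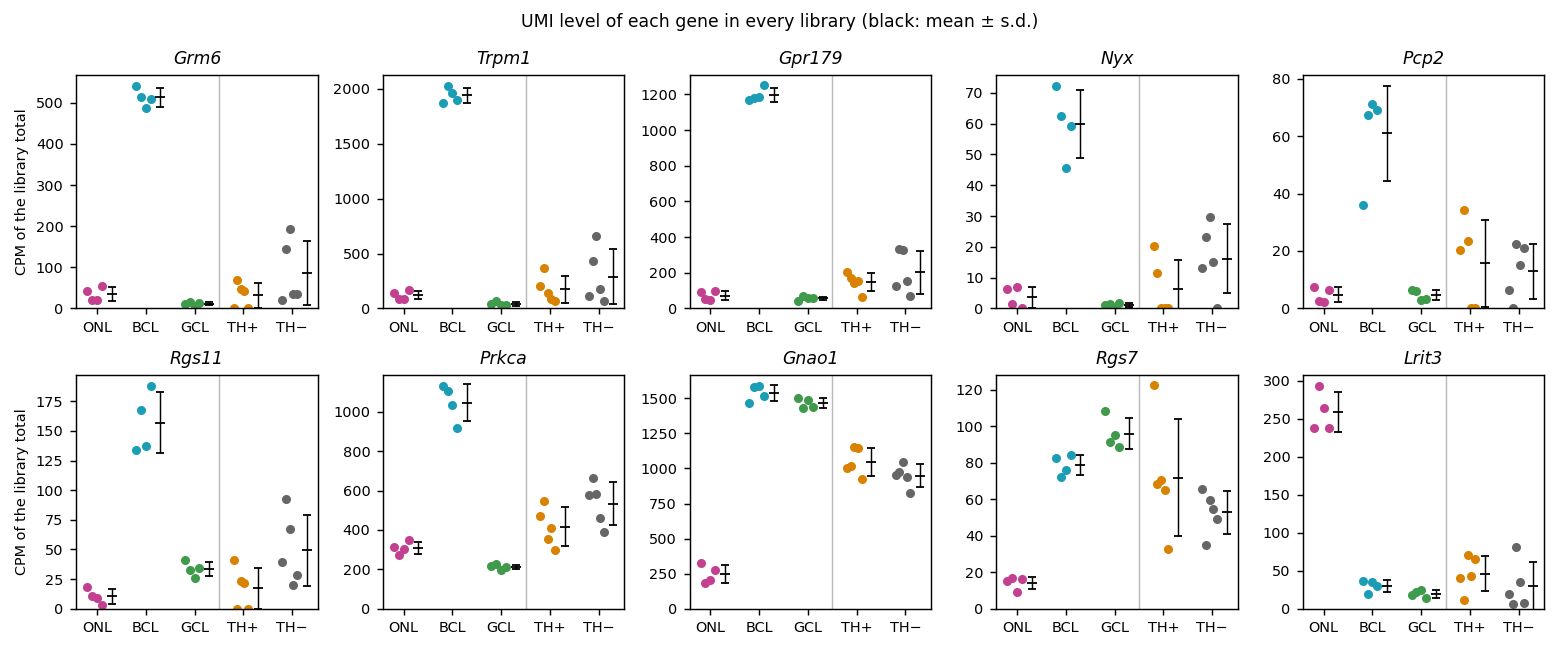
UMI level (CPM of the library total, linear axis from 0) of the 10 genes in every library, with 4 sections per layer and 5 per amacrine group, and the mean ± s.d. in black beside each group (bars end at the axis where they would pass 0). In the top row and in Rgs11 and Prkca the 4 BCL points sit above all ONL and GCL points, in Gnao1 and Rgs7 the BCL and GCL points sit far above the ONL, and in Lrit3 the ONL points, between 238 and 293 CPM, sit above all others.

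The start of Grm6 and the start of Lrit3 are shown because the one encodes the receptor of the BCL group and the other is the ONL gene among the 10. Each sequence is the 250 bases before the canonical start, read 5′ to 3′ on the gene's strand from GRCm39 with GENCODE vM39, and capitals mark E-box letters (CANNTG, the core bound by basic helix-loop-helix factors). Grm6 lies at chr11:50741512-50757035 on the plus strand, and the window is chr11:50741262-50741511. Lrit3 lies at chr3:129581530-129597679 on the minus strand, and the window is chr3:129597680-129597929. Neither window overlaps an annotated exon.
Grm6: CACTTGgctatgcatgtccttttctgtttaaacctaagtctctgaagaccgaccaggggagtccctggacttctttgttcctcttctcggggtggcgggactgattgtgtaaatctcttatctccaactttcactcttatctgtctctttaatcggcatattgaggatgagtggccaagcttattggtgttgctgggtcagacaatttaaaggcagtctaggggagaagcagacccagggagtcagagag
Lrit3: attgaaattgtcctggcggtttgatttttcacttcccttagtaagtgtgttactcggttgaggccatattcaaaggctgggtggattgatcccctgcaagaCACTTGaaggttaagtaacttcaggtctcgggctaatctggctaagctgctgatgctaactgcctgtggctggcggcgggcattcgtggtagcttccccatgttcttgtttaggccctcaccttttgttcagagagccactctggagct

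On both strands of the same windows, TAATCC (the OTX and CRX core) stood in 0 of 10 members and in 7.0% of 21770 protein-coding promoters. TAATTA (a homeodomain core) stood in 0 of 10 and in 5.18%. CANNTG, which reads alike on both strands, stood in 8 of 10 and in 64.8%, with no match in the windows of Gpr179 and Gnao1. The E-box letters were thus present in the window of the BCL gene and in that of the ONL gene.

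Grm6, which encodes the receptor mGluR6 itself, was measured at 542, 513, 488 and 509 CPM in BCL sections 1 to 4. In the ONL the same sections gave 42.4, 20.8, 20.5 and 54.8 CPM, and in the GCL 10.2, 15.0, 6.15 and 13.7 CPM. The BCL range did not touch either of the others, and every section had the order BCL, ONL, GCL. Grm6 was 12.2-fold higher in the BCL than in the ONL (log2 fold change 3.61 ± 0.18 s.e., adjusted p = 1.61e-23, edgeR quasi-likelihood test with Benjamini-Hochberg adjustment). Against the GCL it was 40.0-fold higher (log2 5.32 ± 0.20, adjusted p = 2.34e-28, edgeR), which was rank 10 of 11324 genes. With bulk libraries of a layer, fewer cells of a type and less RNA per cell cannot be told apart.

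Trpm1, the cation channel at the end of the relay, was measured at 1872, 2029, 1961 and 1898 CPM in the BCL. The ONL gave 141, 88.5, 89.0 and 171 CPM and the GCL 38.2, 70.4, 35.4 and 29.0 CPM. As for Grm6, the 3 layers did not overlap and the BCL was highest in 4 of 4 sections. The rise over the ONL was 12.9-fold (log2 3.69 ± 0.15, adjusted p = 4.07e-27, edgeR). Over the GCL it was 39.5-fold (log2 5.30 ± 0.16, adjusted p = 5.30e-32, edgeR), rank 11 among all genes tested. Trpm1 lies at chr7:63803583-63922019 on the plus strand.

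Gpr179, an orphan receptor that anchors RGS proteins beside the channel, was measured at 1171, 1180, 1184 and 1251 CPM in the BCL. The ONL gave 91.1, 51.2, 47.9 and 99.9 CPM, and the GCL 42.0, 68.9, 56.9 and 56.4 CPM. ONL and GCL values overlapped here, while the BCL stood apart from both. It was 13.3-fold higher in the BCL than in the ONL (log2 3.73 ± 0.15, adjusted p = 4.07e-27, edgeR) and 19.1-fold higher than in the GCL (log2 4.25 ± 0.15, adjusted p = 3.33e-30, edgeR). Gpr179 lies at chr11:97222935-97242903 on the minus strand and shares no exon base with another annotated gene.

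Nyx, which encodes the leucine-rich repeat protein nyctalopin that holds TRPM1 at the dendrite tip, was a gene of low counts. It had 14, 13, 9 and 12 UMIs in the BCL, 5, 1, 3 and 0 in the ONL and 1, 1, 0 and 1 in the GCL. These correspond to 45.7 to 72.2 CPM in the BCL, up to 6.85 CPM in the ONL and up to 1.71 CPM in the GCL. The BCL lay above both layers in 4 of 4 sections, with a log2 fold change of 3.51 ± 0.45 over the ONL (adjusted p = 4.18e-09, edgeR) and 5.28 ± 0.53 over the GCL (adjusted p = 4.21e-12, edgeR). With 3 UMIs in all in the GCL, the pooled ratio of 53.7 has a 95% exact interval from 17.3 to 269 for counting error.

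Lrit3 encodes a leucine-rich repeat protein that is needed for TRPM1 and nyctalopin at the synapse. It was measured at 238, 293, 265 and 239 CPM in the ONL, at 36.1, 19.2, 35.6 and 29.7 CPM in the BCL and at 17.8, 22.5, 24.6 and 13.7 CPM in the GCL. The ONL stood above both other layers in 4 of 4 sections, whereas BCL and GCL values overlapped and rested on 4 to 16 UMIs per library. Lrit3 was 10.9-fold lower in the BCL than in the ONL (log2 -3.44 ± 0.22, adjusted p = 5.78e-19, edgeR), the opposite direction of the other 9 members. The ONL exceeded the GCL 14.6-fold (log2 3.87 ± 0.17, adjusted p = 1.99e-26, edgeR). Between BCL and GCL the log2 difference was 0.43 (95% interval -0.29 to 1.15, adjusted p = 0.376, edgeR).

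Gnao1, the alpha subunit of Go, is used by many neurons. It was measured at 1470, 1583, 1590 and 1513 CPM in the BCL, 1503, 1434, 1489 and 1436 CPM in the GCL and 330, 187, 208 and 274 CPM in the ONL. BCL and GCL overlapped and both lay above the ONL in every section. The BCL was 4.88-fold higher than the ONL (log2 2.29 ± 0.13, adjusted p = 4.75e-21, edgeR). Between BCL and GCL the log2 difference was -0.10 (95% interval -0.33 to 0.13, adjusted p = 0.552, edgeR), and its sign turned to 0.07 with scaling by column totals.

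Rgs7 and Rgs11 encode the RGS proteins that shorten the life of active Go in these cells. Rgs7 gave 82.5, 72.0, 76.2 and 84.0 CPM in the BCL, 108, 91.4, 95.3 and 88.8 CPM in the GCL and 15.0, 16.6, 9.13 and 16.1 CPM in the ONL. Every GCL library lay above every BCL library, but the difference missed the threshold (log2 BCL minus GCL -0.46 ± 0.20, adjusted p = 0.0657, edgeR). Without a low-count filter, or without mitochondrially encoded genes, it passed, with adjusted p = 0.0487 and adjusted p = 0.0476 (edgeR). Against the ONL, Rgs7 was 4.23-fold higher in the BCL (log2 2.08 ± 0.29, adjusted p = 3.02e-08, edgeR).

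Rgs11 gave 134, 168, 137 and 188 CPM in the BCL, 40.8, 33.0, 26.1 and 34.2 CPM in the GCL and 18.7, 11.1, 9.13 and 3.22 CPM in the ONL. The layers kept the order BCL, GCL, ONL in 4 of 4 sections, in contrast to Grm6 and Trpm1, for which the GCL was lowest. Rgs11 was 9.97-fold higher in the BCL than in the ONL (log2 3.32 ± 0.28, adjusted p = 4.83e-15, edgeR) and 4.12-fold higher than in the GCL (log2 2.04 ± 0.22, adjusted p = 3.09e-11, edgeR). Its exons overlap those of Fam234a and Arhgdig on the opposite strand.

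Pcp2 and Prkca are labels of ON bipolar cells that act around the relay. Pcp2, a Purkinje cell protein that binds Go, had 7, 14, 14 and 14 UMIs in the BCL, 6, 2, 1 and 2 in the ONL and 5, 4, 2 and 2 in the GCL. The BCL was 9.58-fold above the ONL (log2 3.26 ± 0.42, adjusted p = 4.12e-09, edgeR) and 10.7-fold above the GCL (log2 3.42 ± 0.40, adjusted p = 3.80e-10, edgeR). Its exons overlap those of Pet100 on the opposite strand.

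Prkca encodes protein kinase C alpha, the usual stain for rod bipolar cells. It gave 1130, 1103, 1032 and 920 CPM in the BCL, 316, 273, 301 and 348 CPM in the ONL and 215, 226, 197 and 210 CPM in the GCL. The BCL libraries were again highest, but with a smaller step than for the receptor and the channel. Prkca was 2.71-fold higher in the BCL than in the ONL (log2 1.44 ± 0.11, adjusted p = 6.85e-16, edgeR) and 4.38-fold higher than in the GCL (log2 2.13 ± 0.11, adjusted p = 4.41e-22, edgeR). Prkca shares exon bases with Apoh and a pair of noncoding models on the opposite strand and with the processed pseudogene Gm52957 on its own strand. Counting at the default settings ignores strand and leaves out reads that match more than 1 gene, so counts of members with shared exon bases are uncertain. The overlaps were read from GENCODE vM39, a later release than the vM27 used for counting. A model absent from vM27 would have removed no reads. Grm6, Trpm1, Nyx and Gnao1 share exon bases with opposite-strand models that code for no protein, while Lrit3 and Rgs7, like Gpr179, share none.

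**Figure D2:**
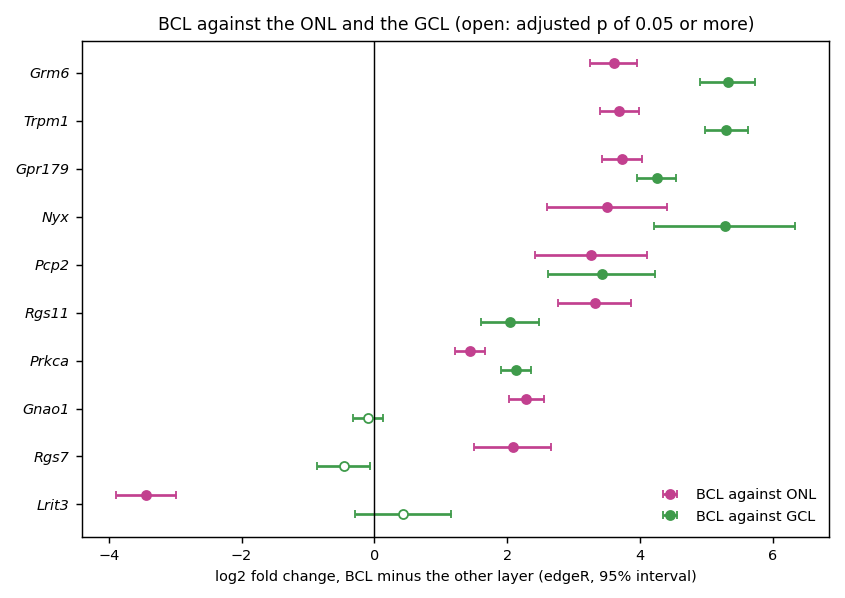
Log2 fold changes of the 10 genes, BCL minus ONL (magenta) and BCL minus GCL (green), with 95% intervals from edgeR and open points for an adjusted p of 0.05 or more. Grm6, Trpm1 and Nyx lie at 3.51 to 3.69 against the ONL and at 5.28 to 5.32 against the GCL, and Lrit3 alone lies to the left of 0 against the ONL, at -3.44.

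In counts, 10 of 10 members were called between BCL and ONL (36.7% of all genes tested), with 9 higher in the BCL (18.2% of all genes) and 1 higher in the ONL (18.5%). Against the GCL 7 of 10 were called (36.5% of all genes). All 7 were higher in the BCL (16.1%), and 0 were called higher in the GCL by edgeR or by DESeq2 (20.4%), with 1, Rgs7, at an unadjusted p under 0.05. At that unadjusted p (edgeR), 2724 of all 11324 genes tested were higher in the GCL. The median log2 fold change of the members was 3.29 over the ONL and 2.78 over the GCL, beside -0.09 and -0.02 over all genes tested. The 2 comparisons share the BCL libraries. Scaling by column totals moved the median of all genes to 0.25 and 0.15 and the split of calls from 2056 higher in the BCL and 2096 in the ONL to 2876 and 1205, and from 1826 and 2310 against the GCL to 2341 and 1879.

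Other cells of the BCL were higher in the same libraries. All 10 Müller glia genes and all 5 horizontal cell genes were called higher in the BCL than in the ONL, as were 6 of 7 OFF bipolar genes, a cell class that does not use mGluR6. The OFF bipolar genes summed to 1062 to 1491 CPM in the BCL, 59.5 to 113 CPM in the ONL and 90.5 to 198 CPM in the GCL. The part of cell mixture in the layer differences was not tested.

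Divided by exon length (RPKM, which allows levels of different genes to be set side by side), the BCL held Gnao1 at 139 ± 5.22, Trpm1 at 132 ± 4.74, Gpr179 at 125 ± 3.85 and Prkca at 116 ± 10.4 (s.d., n = 4). Each of these overlapped the next in this order. Grm6 followed at 94.6 ± 4.08 RPKM, below all of them without overlap. Rgs11 at 37.3 ± 6.12 and Pcp2 at 33.3 ± 9.09 RPKM overlapped, as did Rgs7 at 13.1 ± 0.931, Nyx at 11.6 ± 2.11 and Lrit3 at 11.0 ± 2.87 RPKM. RNA of the receptor, the channel and the RGS anchor thus lay between 94.6 and 132 RPKM on this measure, and nyctalopin RNA well under them. In the ONL the order began with Lrit3, at 94.5 ± 9.56 RPKM, ahead of Prkca at 34.4 ± 3.50 and Gnao1 at 22.6 ± 5.88 RPKM. The exon length counts the exons of every annotated transcript, so a gene with many isoforms, such as Trpm1 with 34, is given a low RPKM. These lengths were deposited with the mouse counts of the mixed culture. The 34 transcripts of Trpm1 were counted in a later GENCODE release (vM39) than the one used for counting reads (vM27). Another choice of length could shift the order.

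The members can also be compared within a library by their UMIs per Trpm1 UMI. The ratio of Grm6 to Trpm1 UMIs was 0.265 ± 0.0183 for the BCL, 0.281 ± 0.132 for the GCL and 0.272 ± 0.0459 for the ONL (s.d. of the section ratios, n = 4). Gpr179 kept its ratio to Trpm1 between BCL and ONL, at 0.617 ± 0.0329 and 0.587 ± 0.0444, and stood at 1.41 ± 0.449 in the GCL. Rgs11 stood at 0.0808 ± 0.0134 per Trpm1 UMI in the BCL and 0.863 ± 0.322 in the GCL, and Prkca at 0.539 ± 0.0494 and 5.41 ± 1.66. These ratios were chosen after their values were seen. All share Trpm1 as the denominator, so tests of them restate its layer differences together with those of each gene. In exact two-sided permutation tests of 6 genes in 2 layers against the BCL, the GCL ratios of Gpr179, Rgs11, Pcp2 and Prkca and the ONL ratio of Prkca reached the smallest p that 4 against 4 sections allow, 0.0286, which is 0.0686 after adjustment over the 12 tests. The GCL ratio of Grm6 rests on 4 to 10 Grm6 UMIs per library.

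Between the ONL and the GCL, neither of which holds bipolar cell bodies by its label, 8 of 10 members were called (61.5% of all genes). Of these, 5 were higher in the ONL (29.3% of all genes) and 3 higher in the GCL (32.2%). Grm6 was 3.28-fold (log2 1.71 ± 0.31, adjusted p = 4.00e-06, edgeR) and Trpm1 3.06-fold (log2 1.61 ± 0.20, adjusted p = 7.14e-10, edgeR) higher in the ONL. Lrit3 and, with a log2 of 0.69 ± 0.12 (adjusted p = 9.74e-07, edgeR), Prkca were higher there too. Gpr179 was called with a log2 of 0.53 ± 0.20 (adjusted p = 0.0178, edgeR), but it was higher in only 2 of 4 sections, and without section 1 the log2 was 0.16 (adjusted p = 0.553, edgeR). The call was lost under 6 of 11 alternatives: without section 1, without section 4 (adjusted p = 0.0908, edgeR), by DESeq2 (adjusted p = 0.0593), and, in edgeR, with column totals (adjusted p = 0.111), without a low-count filter (adjusted p = 0.0699) and without mitochondrially encoded genes (adjusted p = 0.0512).

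The genes higher in the GCL were Gnao1 (log2 ONL minus GCL -2.39 ± 0.13, adjusted p = 2.01e-23, edgeR), Rgs7 (-2.54 ± 0.22, adjusted p = 7.22e-15, edgeR) and Rgs11 (-1.28 ± 0.31, adjusted p = 3.07e-04, edgeR). Pcp2 was not called (log2 0.16, 95% interval -0.99 to 1.32, adjusted p = 0.819, edgeR). Nyx was just outside (log2 1.77 ± 0.81, adjusted p = 0.0550, edgeR) and passed without section 2 (adjusted p = 0.0379) or without section 4 (adjusted p = 0.0378) and with edgeR's default filter (adjusted p = 0.0426), all by edgeR and 3 of 11 alternatives. In the same libraries 6 pan-bipolar genes summed to 717 to 793 CPM in the ONL and 99.0 to 186 CPM in the GCL, while 6 further ON bipolar genes summed to 75.3 to 139 CPM in the ONL and 123 to 154 CPM in the GCL. The part of bipolar RNA in these differences was not tested.

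As shares of the 3 layer means, Grm6 was 6.20% ONL, 91.8% BCL and 2.01% GCL. Among 4143 genes with at least 50 CPM in the BCL the closest pattern was that of Trpm1, at a distance of 0.52 percentage points. Next came Bhlhe23 at 1.07 points, a basic helix-loop-helix factor, Car8 at 1.08 points, a carbonic anhydrase relative, Nyx at 1.1 points and Neurod4 at 1.34 points, another basic helix-loop-helix factor. Gpr179 was rank 15, Pcp2 rank 32, Rgs11 rank 105 and Prkca rank 187. Gnao1 and Rgs7 were at rank 958 and 1948, and Lrit3, with 83.9% of its sum in the ONL and a BCL level under that minimum, would stand at rank 4131. These distances rest on the same 12 libraries and are a description.

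The genes listed as postsynaptic partners, whose side of the synapse was not tested, were divided between the layers. Of 14 postsynaptic partners, 7 were called higher in the BCL than in the ONL (18.2% of all genes), 5 were called higher in the ONL (18.5%) and 2 were not called, and their median log2 fold change was 0.54. Gng13, the gamma subunit paired with Go in these cells, had the largest change (log2 4.31, adjusted p = 9.12e-09, edgeR), followed by Rgs16 (3.53), Cabp5 (3.19), a calcium-binding protein of rod bipolar cells, and Cacna1s (2.82), a calcium channel subunit. Gng13 rested on 40 UMIs in all BCL, 4 in all ONL and 4 in all GCL libraries, and Cacna1s on 14, 4 and 2. Both passed the low-count filter only through the BCL libraries, where they were high. Lower in the BCL than in the ONL were Rgs9bp (-1.92), the membrane anchor of RGS9, Rgs20 (-1.71), an RGS protein, Gnb5 (-1.38), the beta subunit bound to RGS proteins, Lrit2 (-0.99) and Lrit1 (-0.94). Gnb3, the beta subunit of the complex that is also found in cones, was not called (log2 0.28, adjusted p = 0.152, edgeR), nor was Dag1, the dystroglycan gene (-0.05, adjusted p = 0.847, edgeR). Gnb3 is also among the pan-bipolar genes above, and Gng13 and Cabp5 among the further ON bipolar genes, so these counts share genes.

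Against the GCL, 11 of these 14 partners were called higher in the BCL (16.1% of all genes), with a median log2 fold change of 2.35, led by Cabp5 (4.91), Gng13 (4.67), Cacna1s (3.97) and Gnb3 (3.49). The values of Gng13 and Cacna1s rest on 4 and 2 UMIs in all GCL libraries. Rgs7bp, which anchors RGS7, was called the other way (-2.01, adjusted p = 3.08e-12, edgeR). Dag1 (-0.11) was among those not called. Between ONL and GCL 7 were called higher in the ONL (29.3% of all genes), among them Lrit2 (3.88) and Rgs9bp (3.86), and 3 were higher in GCL libraries (32.2%), among them Rgs7bp (-2.80) and Rgs16 (-1.50). On the CPM scale Lrit1 averaged 521 ± 41.0 for ONL, 344 ± 64.3 for BCL and 48.5 ± 24.3 for GCL libraries, and Lrit2 356 ± 57.6, 228 ± 32.0 and 27.0 ± 11.0 (s.d., n = 4). Like Lrit3, both were highest in the ONL, but their BCL levels were much nearer to it.

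Genes of the photoreceptor terminal act across the cleft from the complex. Of 11, 7 were called higher in the ONL than in the BCL (18.5% of all genes) and 2 in the BCL (18.2%), with a median log2 fold change of -0.83. The largest were Cabp4 (-2.67), Elfn1 (-2.34), which binds mGluR6 across the synapse, and Egflam (-2.08), which encodes pikachurin. Elfn2, the relative of Elfn1 used by cones, went the other way (1.86, adjusted p = 2.24e-13, edgeR), as did the active zone gene Bsn (0.71). Cacna2d4 (0.15) and Lrfn2 (-0.79) were not called. Against the GCL, 8 of 11 were higher in the BCL (16.1% of all genes), led by Cacna2d4 (3.27), and Elfn1 (-0.89) and Bsn (-0.80) were lower (20.4%). All 10 rod genes were also called higher in the BCL than in the GCL, with a median log2 fold change of 1.28, and their part in this count was not tested. Between ONL and GCL 9 of 11 were higher in the ONL (29.3%), led by Cabp4 (3.94), and Bsn (-1.51) and Elfn2 (-0.80) were lower (32.2%).

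**Figure D3:**
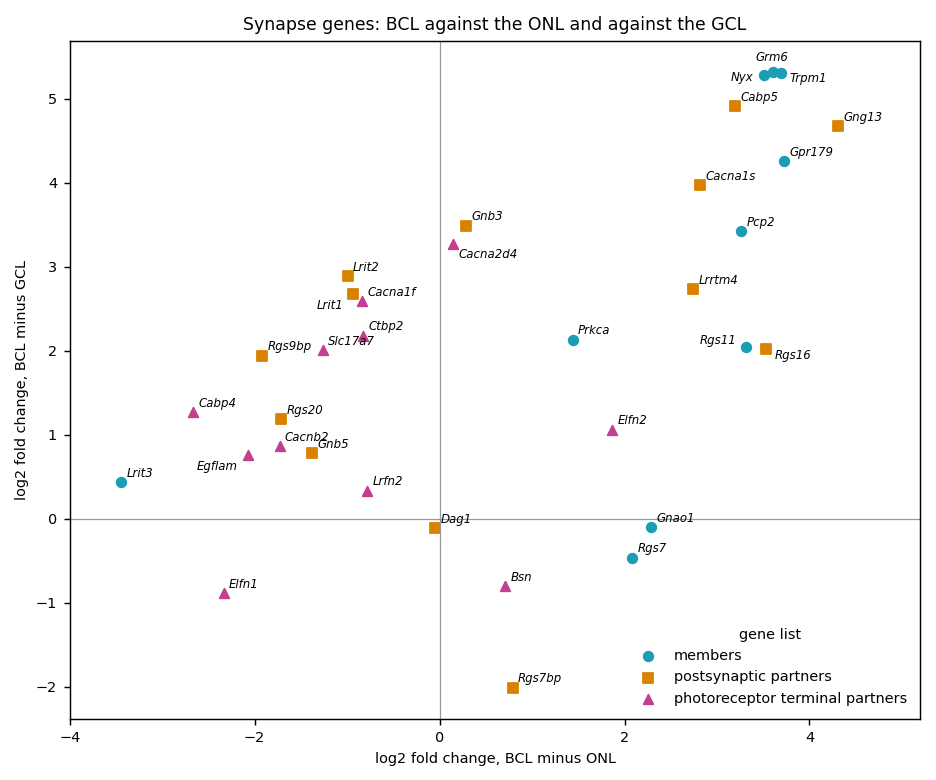
Each point is a gene, with its log2 fold change in the BCL against the ONL on the horizontal axis and against the GCL on the vertical axis, for the members (circles), postsynaptic partners (squares, 13 of the 14) and photoreceptor terminal partners (triangles). Both axes use the same BCL libraries. Grm6, Trpm1, Nyx, Cabp5, Gng13 and Gpr179 form the upper right corner, while Lrit3, at -3.44, lies on the side of Cabp4 at -2.67.

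Relatives of the members are genes of the same family or, as Pcp4 beside Pcp2, of a similar name only, with roles elsewhere. Of 17 tested, 2 were called higher in the BCL than in the GCL (16.1% of all genes) and 7 higher in the GCL (20.4%), with a median log2 fold change of -0.40. The BCL genes were Gnai2 (0.93), an inhibitory G alpha subunit, and Rgs9 (0.66), the RGS protein of photoreceptors. The GCL genes included Gpr158 (-2.74), the nearest relative of Gpr179, Grm4 (-2.31), another group III glutamate receptor, Gnai1 (-1.72) and Grm8 (-1.49). Against the ONL, 9 were higher in the BCL (18.2% of all genes), led by Pcp4 (2.67), Gnai2 (2.60), Prkcb (2.44) and Rgs6 (1.49), and Rgs9 (-2.29), Gnaz (-1.56) and Trpm7 (-1.02) were lower (18.5%), with a median log2 of 1.11. Between ONL and GCL 16 were called, 3 with more in the ONL (29.3% of all genes) and 13 with more in the GCL (32.2%).

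In the amacrine libraries most members had low counts, Gnao1 and Prkca being the exceptions. Grm6 was seen as 0, 6, 2, 2 and 0 UMIs in TH+ sections 1 to 5 and as 3, 25, 26, 7 and 5 UMIs in TH- sections. In CPM, the TH- libraries gave 19.7, 145, 193, 34.9 and 35.2. The TH- libraries of sections 2 and 3 were the highest, and the groups overlapped. The log2 difference, TH+ minus TH-, was -1.08 (95% interval -2.28 to 0.11, adjusted p = 0.622, edgeR).

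Trpm1 gave 204, 366, 141, 86.5 and 66.0 CPM in TH+ libraries and 112, 428, 662, 180 and 63.4 CPM in TH- libraries. Gpr179 gave 204, 172, 141, 151 and 66.0 CPM in TH+ and 125, 336, 327, 155 and 70.5 CPM in TH-. Sections 2 and 3 were again highest in TH-, section 5 was lowest in both groups, and both genes overlapped between groups. The log2 differences were -0.49 for Trpm1 (95% interval -1.26 to 0.29, adjusted p = 0.794, edgeR) and -0.38 for Gpr179 (-1.05 to 0.29, adjusted p = 0.821, edgeR). The sum of 6 pan-bipolar genes in TH- libraries was 381, 949, 1161, 644 and 282 CPM in sections 1 to 5, so it was also highest in sections 2 and 3. In TH+ libraries it was 551, 515, 635, 432 and 165 CPM. Of the other markers in TH- libraries, the sums of 6 further ON bipolar genes (434 and 446 CPM), 7 OFF bipolar genes (376 and 365 CPM) and 10 Müller glia genes (7122 and 7999 CPM) were highest in sections 2 and 3 too, where the other sections gave 141 to 235, 211 to 294 and 5260 to 6798 CPM. The sum of 8 amacrine genes was lowest there, at 4432 and 4636 CPM against 5386 to 7598 CPM. The part of bipolar or glial RNA in the section differences was not tested.

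**Figure D4:**
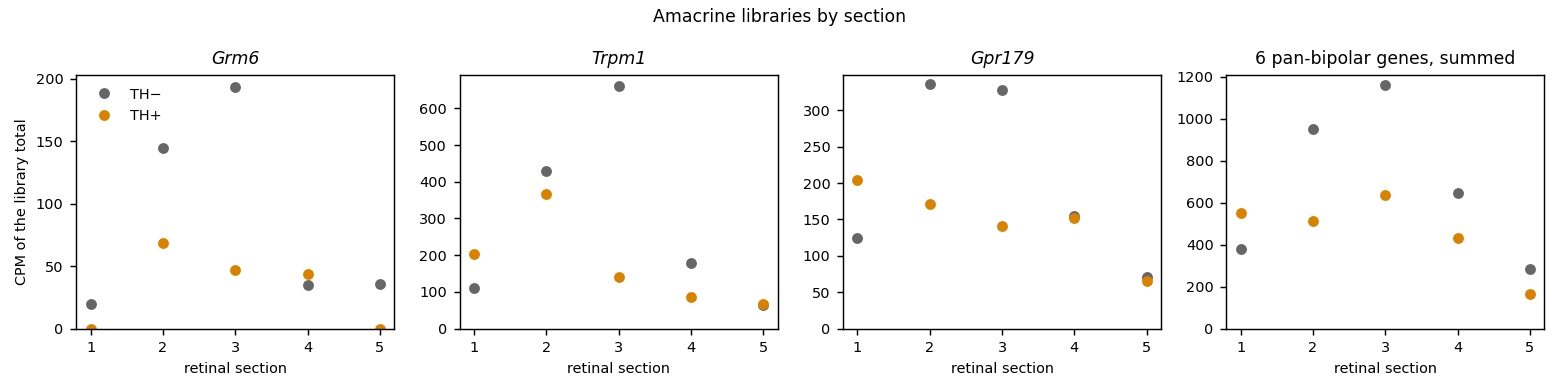
UMI level (CPM of the library total, linear axes from 0) of Grm6, Trpm1, Gpr179 and the sum of 6 pan-bipolar genes in the TH+ (orange) and TH- (grey) libraries of each of 5 sections. The grey points of sections 2 and 3 are the highest in all 4 panels, reaching 193, 662, 336 and 1161 CPM, and the orange points of section 5 lie at or near the bottom.

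Of the 8 members that passed the filter, 0 were called in either direction, where 0.83% of 6021 genes tested were called, 0.747% higher in TH+ and 0.083% higher in TH- cells. DESeq2 called 0 as well, and 1, Rgs11, had an unadjusted p under 0.05 (log2 -1.57, adjusted p = 0.476, edgeR). Of all 6021 genes tested, 533 had an unadjusted p under 0.05 (edgeR). With the section as a block 148 genes were called in place of 50, and still 0 members. The median log2 difference of the 8 was -0.34, beside -0.05 for all genes tested. Gnao1 had the smallest log2 difference of the 8, with 1048 ± 99.1 CPM in TH+ and 948 ± 80.9 CPM in TH- cells (s.d., n = 5, log2 0.14, 95% interval -0.17 to 0.46, adjusted p = 0.877, edgeR), and it was higher in TH+ in 5 of 5 sections.

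Prkca was lower in TH+ in 5 of 5 sections, at 416 ± 98.4 against 534 ± 110 CPM (log2 -0.30, 95% interval -0.69 to 0.10, adjusted p = 0.734, edgeR). Lrit3 rested on 10 UMIs in all TH+ libraries and 23 in TH- libraries (log2 0.44, 95% interval -0.84 to 1.71, adjusted p = 0.923, edgeR). Rgs7 rested on 19 and 42 UMIs (log2 0.49, 95% interval -0.35 to 1.33, adjusted p = 0.807, edgeR). Nyx and Pcp2 were below the filter, with 2 and 5 UMIs in TH+ and 13 and 10 in TH-, and exact two-sided permutation tests over the 252 splits gave p = 0.175 and p = 0.762. The intervals given do not exclude differences up to their ends, and the smallest difference detectable at these depths was not computed. In the same libraries 3 of 10 rod genes were called higher in TH+, and the rod genes summed to 14660 to 37560 CPM in TH+ and 8372 to 21850 CPM in TH-.

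None of the partner lists had a call between TH+ and TH- cells by edgeR or DESeq2, with 0 of 9 postsynaptic partners, 0 of 9 photoreceptor terminal partners and 0 of 15 relatives. At an unadjusted p under 0.05 (edgeR) there were 1, 3 and 1 such genes, beside 533 of all 6021 genes tested. With the section as a block 1 photoreceptor terminal partner was called. The lowest adjusted p among the 3 lists was that of Slc17a7, a vesicular glutamate transporter gene (log2 0.62, adjusted p = 0.0931, edgeR). Slc17a7 averaged 3983 CPM in the ONL and 2085 CPM in the BCL.

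Mean levels in the amacrine libraries can be set beside the layers but were not tested against them, since the tables are separate experiments. Grm6 averaged 31.8 ± 30.6 CPM in TH+ and 85.6 ± 78.4 CPM in TH- libraries, beside 513 ± 22.1 CPM in the BCL, 34.6 ± 16.9 CPM in the ONL and 11.2 ± 3.96 CPM in the GCL. Trpm1 averaged 173 ± 121 and 289 ± 251 CPM in TH+ and TH-, beside 1940 ± 70.1, 122 ± 40.6 and 43.3 ± 18.5 CPM in BCL, ONL and GCL. For these genes the s.d. relative to the mean was larger among amacrine sections than among BCL sections.

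Outside the retina, in mouse 3T3 fibroblasts barcoded in 3 wells of a mixed culture, 7 members had 0 of 540880 UMIs, which allows a level of up to 5.55 CPM. These were Grm6, Trpm1, Gpr179, Nyx, Lrit3, Rgs7 and Pcp2, and Rgs11 had 1 UMI. Gnao1 and Prkca were the exceptions, with 112 and 135 UMIs, or 207 and 250 CPM, and they were found in every well.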

How the data were processed

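RNA in retinal sections was reverse transcribed in place with random primers and barcoded by light. Per the file headers and the study's methods, the authors took barcode and UMI with UMI-tools 1.1.1, mapped reads with STAR 2.7.9a to mm39 genes, kept those with a single match, counted exons with featureCounts and collapsed UMIs per gene. The deposited count is therefore a number of distinct UMIs, without normalization. A ribosomal RNA gene and a mitochondrial ribosomal RNA gene had been discarded by the authors. The study names the default settings of featureCounts, which do not use strand and leave out reads that match several genes.

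CPM were computed from column totals, and RPKM by dividing CPM by the length of all annotated exons. Tests used edgeR 4.0.16 (glmQLFit and glmQLFTest under R 4.3.3 and limma 3.58.1) with TMM scaling, genes kept by filterByExpr (min.count 3, min.total.count 10), and Benjamini-Hochberg adjustment at 0.05. The 12 layer libraries were 1 fit and the 10 amacrine libraries another. Each standard error (s.e.) was taken as the absolute log2 fold change over the square root of F, and intervals are at 95%. Members below the filter were tested by exact permutation over sections. The procedure was tested on simulated data. DESeq2 1.42.0 was an alternative. Other steps used python 3.11.15, numpy 2.4.6, pandas 2.3.3, scipy 1.17.1 and matplotlib 3.10.9.

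Libraries of 1 section share that section, so the section number pairs them. After removal of group means, same-section libraries correlated at 0.0116 to 0.0493 over 12 pairs of layers and at 0.0287 to 0.257 over 5 amacrine pairs. The members, 3 gene lists (postsynaptic partners, photoreceptor terminal partners and relatives of the members) and 13 marker lists were chosen with earlier results of these data known. From the 3 lists, the genes named are the called ones with the largest change, at most 4 per list and comparison, and those not called where they number 5 or fewer. Other genes of these lists were named after their values were seen, and some genes of the lists are not reported here by name. The 5 genes closest to Grm6 in layer shares are named too. Starts and exons were taken from GENCODE vM39 on GRCm39, matched by Ensembl identifier for 10 of 10 members.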

Additional observations from a re-analysis of the deposited data

Results flagged for a closer look

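Among 50 groups of 4 or 5 libraries (10 members in 5 groups), 2 held a library set apart from the others by Dixon's criterion, which chance gives in about 1 of 20 groups. Gpr179 in BCL section 4 stood at 1250 CPM, above the other BCL sections at 1170 to 1180 CPM. Pcp2 in BCL section 1 stood at 36.1 CPM, from 7 UMIs, below the other sections at 67.2 to 71.1 CPM. Both genes were called higher in the BCL than in the ONL and the GCL without these sections too.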

How the results depend on the processing

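Of 420 log2 fold changes of single genes under alternatives, 404 kept their direction and side of the threshold, 5 reversed, 5 gained and 6 lost a call. Gnao1, BCL against GCL, went to 0.07 with column totals, and in TH+ against TH- to -0.012 without a low-count filter. With a replicate left out, Pcp2, ONL against GCL, ranged from -0.14 to 0.50 (below 0 without replicates 1 and 4), and Trpm1, TH+ against TH-, from -0.91 to 0.09 (above 0 without replicate 3). None of these was called before or after. Of 245 counts, 239 stayed within 1.5 times. Members higher in the GCL than in the BCL were 1 instead of 0 without a low-count filter and without mitochondrially encoded genes. With a 2-fold minimum, photoreceptor terminal partners called between BCL and GCL were 6, and members higher in the ONL than in the GCL 3, by the construction of the minimum. Photoreceptor terminal partners called between TH+ and TH- ranged from 0 to 1 over left-out replicates, with 1 without replicate 2, and were 1 with the section as a replicate block. The cause was not tested. The block changed no call of a member. TH+ against TH- gave 148 calls over all genes under the block and 29 to 73 with a replicate left out, against 50.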
